A study of Rattus norvegicus with 68 samples.

Results

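The mitosis genes are a set of 60 genes that act when a cell condenses its chromosomes, builds a spindle, separates the sister chromatids and divides. They were taken by symbol from a fixed list. The list was drawn up with earlier results of these data known, although its rule names no measured value. On the rat array used here 52 of the 60 had a probe set that named that gene alone, out of 14217 genes in all. Where a gene had several such probe sets, which was so for 16 of the 52, the probe set with the highest mean signal over all arrays stood for it. Kif4a, Nek2, Ndc80, Tpx2, Cep55, Ncapg and Cdc25c had no such probe set under their symbols, and the probe set of Anln named several genes, so these 8 were not analysed here. The 52 genes were described in 9 role groups, from entry into mitosis to cytokinesis.

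Mitosis is driven by the kinase Cdk1 bound to cyclins A and B, and ends when the anaphase-promoting complex marks cyclin B and securin for destruction. Most of the proteins involved are made in G2 and M and degraded soon after, and their transcripts rise together before division under the factors FOXM1, B-MYB with the MuvB complex, and NF-Y. In the lining of the nose, divisions occur mainly in basal cells and rise after injury of the surface layer.

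The promoters are shown because many promoters of mitosis genes are known to hold 2 short elements. These are the cell cycle homology region (CHR), searched here as TTTGAA or TTCGAA, and the NF-Y box, searched as CCAAT. Both were searched on both strands in the 250 bases before each gene's start, in the RefSeq promoters of build GRCr8. A promoter was matched for 44 of the 52 genes, with 43 genes having 1 promoter and Kif2c having several, which gave 45 promoters. A CHR match was found in 24 of the 45 (53.3%), against 12.7% of the 13192 promoters matched to genes measured. These covered 11700 of the 14217 genes. An NF-Y box match was found in 35 (77.8%) against 34.6%. Both were present in 22 (48.9%) against 4.67%, and the matches overlapped in 2 promoters. Over all 33469 promoters of the table the shares were 17.4%, 34.0% and 6.31%. The CHR match nearest to the start began at a median of 58.5 bases before it in the mitosis genes with a match, against 145 bases in the genes measured. For the NF-Y box the medians were 68 and 94 bases. The promoters of 4 genes whose signals rose with dose are printed below with that of Bub3, which holds both elements and whose signal moved little. Each printed promoter was among the 22 that held both elements. Cdk1 lies at chr20:19265043-19265292 on the plus strand, Ccnb2 at chr8:79981659-79981908 on the minus strand, Top2a at chr10:84473094-84473343 on the minus strand, Cdc20 at chr5:137255800-137256049 on the minus strand and Bub3 at chr1:195760282-195760531 on the plus strand. Each sequence reads towards the gene and ends at the base before its start, and capitals mark CHR and NF-Y box matches on either strand.
Cdk1: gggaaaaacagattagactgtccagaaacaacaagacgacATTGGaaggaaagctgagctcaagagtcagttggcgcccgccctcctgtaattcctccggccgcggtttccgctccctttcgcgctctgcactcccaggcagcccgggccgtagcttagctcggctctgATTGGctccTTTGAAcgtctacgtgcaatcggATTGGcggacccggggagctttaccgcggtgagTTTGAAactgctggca
Ccnb2: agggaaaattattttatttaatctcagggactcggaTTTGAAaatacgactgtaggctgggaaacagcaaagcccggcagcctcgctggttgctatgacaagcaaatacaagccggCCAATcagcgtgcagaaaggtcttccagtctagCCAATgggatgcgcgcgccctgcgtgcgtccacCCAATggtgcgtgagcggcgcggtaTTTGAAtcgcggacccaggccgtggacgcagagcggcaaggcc
Top2a: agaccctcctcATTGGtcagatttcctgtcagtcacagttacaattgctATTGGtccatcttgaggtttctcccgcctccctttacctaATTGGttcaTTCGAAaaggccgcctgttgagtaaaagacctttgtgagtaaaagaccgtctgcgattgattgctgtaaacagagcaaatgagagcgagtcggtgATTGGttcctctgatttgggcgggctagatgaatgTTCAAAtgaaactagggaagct
Cdc20: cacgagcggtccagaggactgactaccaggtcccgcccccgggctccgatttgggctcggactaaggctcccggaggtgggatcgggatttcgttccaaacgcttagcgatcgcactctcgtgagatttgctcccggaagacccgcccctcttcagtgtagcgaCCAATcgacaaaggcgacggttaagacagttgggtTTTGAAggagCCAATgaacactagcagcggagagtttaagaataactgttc
Bub3: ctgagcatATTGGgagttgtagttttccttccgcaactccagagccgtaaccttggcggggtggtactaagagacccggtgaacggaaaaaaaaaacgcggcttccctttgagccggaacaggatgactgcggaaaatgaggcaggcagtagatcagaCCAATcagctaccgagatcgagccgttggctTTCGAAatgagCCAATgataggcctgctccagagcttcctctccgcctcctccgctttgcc
Cdk1 is the mitotic kinase, Ccnb2 encodes a B-type cyclin, Top2a untangles sister DNA, Cdc20 activates the anaphase-promoting complex and Bub3 is part of the spindle checkpoint. The Cdk1 and Ccnb2 windows each held 2 CHR and 3 NF-Y box matches, that of Top2a 2 and 4, that of Cdc20 1 and 2, and that of Bub3 1 and 3. A match is a run of letters and not a measured binding site, and 8 of the 45 promoters held neither kind, among them those of Aurka, Bub1, Mad2l1, Melk, Ncaph and Nuf2.

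**Figure D1:**
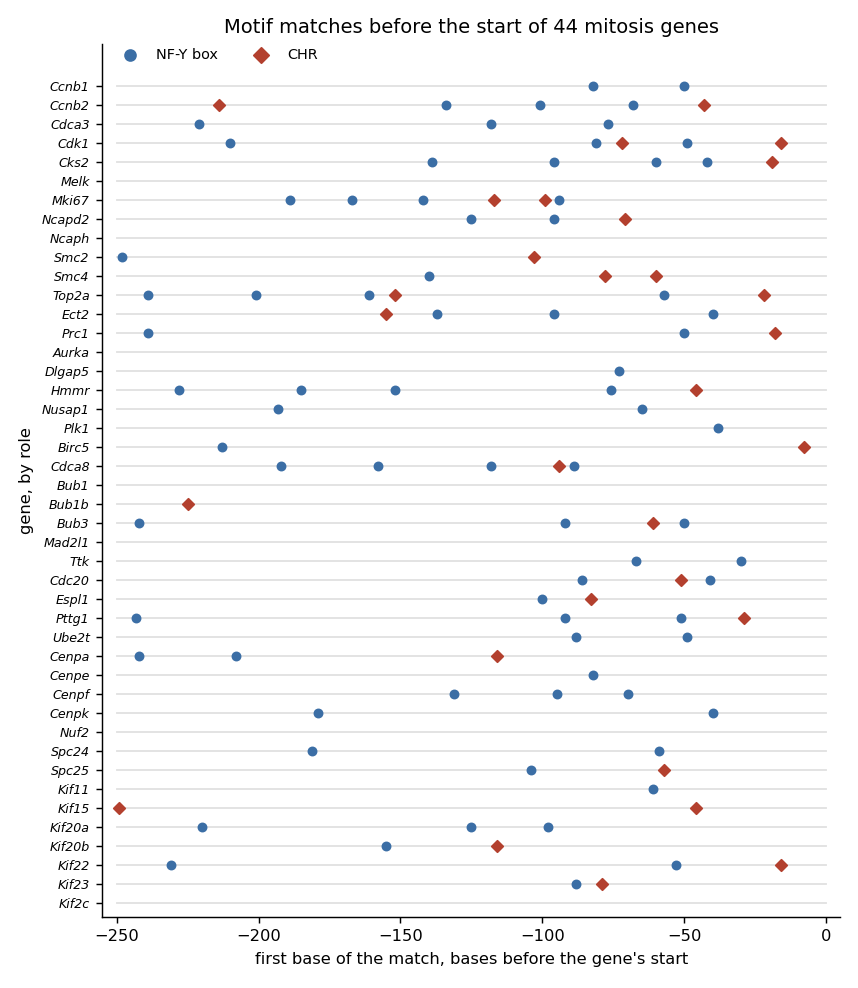
Positions of matches to the CHR (diamonds) and the NF-Y box (circles), on either strand, in the 250 bases before the start of 44 mitosis genes ordered by role. The x axis is the first base of a match in bases before the start, and for Kif2c, which has several promoters and no match, 1 line is drawn. Among genes with a match, the CHR nearest to the start lay at a median of 58.5 bases and the NF-Y box at 68 bases.

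Signals were measured in cells of the nasal lining of male F344/CrlBR rats, a strain of inbred laboratory rat, which were 8 weeks old at the start. The animals breathed formaldehyde, a reactive irritant gas, in whole-body chambers for 6 h a day on 5 days a week at 0.7, 2, 6, 10 or 15 ppm, or air (0 ppm), and were killed after 5 d, 4 w or 13 w. Cells were released with proteases from nasal tissue of level II once the maxilloturbinate and olfactory epithelium were cut away. The 68 single-colour Affymetrix arrays, each with RNA of 1 rat, made 17 groups of 4 animals. Doses from 0 to 15 ppm were present at 5 d and 13 w. No 4 w arrays of 0 ppm were analysed here, so 0.7 ppm, which was itself an exposure, was the reference at 4 w. In 19 of the 20 samples of 4 w the treatment entry says 5 days where all other labels say 4 weeks, and they were used as 4 w. The 0 ppm titles carry codes (ACO1 or ACO3) where the exposed ones carry HCHO, and these codes cannot be told apart from dose, nor at 0 ppm from time. The rats at 13 w were also older, so age, time in the chambers and the code cannot be told apart at 0 ppm.

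The median log2 signal of an array was 6.82 to 6.96. The mean RNA integrity number (RIN), which runs up to 10 for intact RNA, was 7.68 in the 5 d animals of 0 ppm and 8.32 in those of 15 ppm. In the 13 w animals it was 7.57 and 8.90. It was lowest in animal 272 of the 2 ppm 4 w group, at 5.4, and 5 arrays had no RIN. Keratin genes of basal cells (Krt5, Krt14, Krt15) were at log2 signals of 12.0, 13.1 and 14.5 at 0 ppm after 5 d. The olfactory marker Omp was also at 12.8 there, although the olfactory lining had been cut away. These are mixed cell suspensions, so a lower signal from fewer cells of a type and from less RNA per cell cannot be told apart.

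Signals are log2 values, so a difference of 1 is a doubling, and differences are given ± SE from a linear model (limma) with n = 4 animals a group. The p-values are moderated tests adjusted by Benjamini-Hochberg over the 14217 genes of each comparison, and a gene is called at an adjusted p under 0.05. Levels are compared only within a gene, since probe sets differ in their response. The median deviation of an array is the median, over the 52 genes, of the signal minus that gene's mean over all 68 arrays. It is a description of the set and has no test.

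After 5 d, the mitosis genes rose with dose from 6 ppm on. Against 0 ppm, 0 of 52 were called at 0.7 or 2 ppm, 32 were called higher at 6 ppm, 48 at 10 ppm and 49 at 15 ppm. Of all genes, 0% were called higher at 0.7 ppm, 0.0281% at 2 ppm, 3.54% at 6 ppm, 9.75% at 10 ppm and 18.3% at 15 ppm. The median difference over the 52 genes was -0.05 at 0.7 ppm, 0.23 at 2 ppm, 0.44 at 6 ppm, 0.99 at 10 ppm and 1.27 at 15 ppm, while the median of all genes was -0.02 at 0.7 ppm and -0.01 at 15 ppm. At 0.7 ppm 1 of the 52 had an unadjusted p under 0.05, and at 2 ppm 8 had. At 2 ppm 49 of the 52 differences were above 0 without a call, and in 10 genes all 4 animals lay above all 4 of the 0 ppm group, which was so for 2.38% of all genes. At 15 ppm 49 of the 52 lay wholly above 0 ppm, against 15.7% of all genes. The 1 gene called lower at 10 and 15 ppm was Aurkb, and 5.79% and 19.5% of all genes were called lower there. The count at 6 ppm was 20 without animal 204 of 0 ppm, 13 without animal 210 of 0 ppm, 19 without animal 298 and 9 without animal 300 of 6 ppm.

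**Figure D2:**
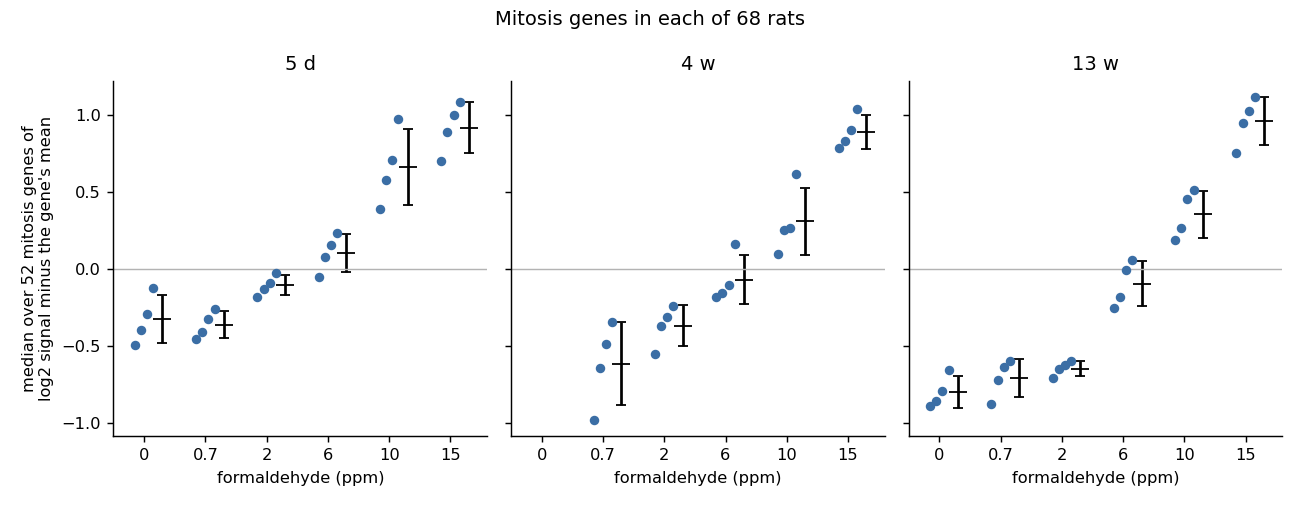
Median deviation (log2) of the 52 mitosis genes in each of the 68 rats, against the formaldehyde dose, in panels for 5 d, 4 w and 13 w. Points are animals, drawn in order of value within a group, and bars are the group mean ± SD of 4 animals. The 15 ppm means are 0.91, 0.89 and 0.96, while the 0 ppm mean is -0.33 after 5 d and -0.80 after 13 w.

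The median deviation of the 5 d animals ran from -0.49 to -0.12 at 0 ppm, from -0.45 to -0.26 at 0.7 ppm, from -0.18 to -0.02 at 2 ppm, from -0.05 to 0.24 at 6 ppm, from 0.39 to 0.97 at 10 ppm and from 0.70 to 1.08 at 15 ppm. The 0 and 0.7 ppm animals overlapped, as did those of 10 and 15 ppm. The 2 ppm animals overlapped those of 0 ppm and of 6 ppm, and the 6 ppm animals lay above all 0 ppm and below all 10 ppm animals. Within a group the genes often moved together. Animal 329 of 10 ppm had the highest signal of its group in 46 of the 52 genes, and animal 324 the lowest in 44. Animal 207 of 0 ppm was the highest in 40 genes and animal 210 the lowest in 36.

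Cdk1, the kinase that starts mitosis, showed the dose pattern in every 5 d group. Its log2 signals were 9.12, 9.23, 9.41 and 9.52 at 0 ppm, 8.87, 9.16, 9.18 and 9.33 at 0.7 ppm, and 9.39, 9.46, 9.61 and 9.76 at 2 ppm. They were 9.62, 9.85, 9.85 and 9.91 at 6 ppm, 10.28, 10.41, 10.48 and 10.82 at 10 ppm, and 10.48, 10.77, 10.84 and 10.97 at 15 ppm. The 0 ppm animals overlapped those of 0.7 and 2 ppm, while 6 ppm lay wholly above 0 ppm and 10 ppm wholly above 6 ppm. The difference from 0 ppm was 0.49 at 6 ppm, 1.18 at 10 ppm and 1.44 ± 0.13 at 15 ppm, a 2.72-fold higher signal (adjusted p = 1.04e-13).

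The partners and regulators of Cdk1 rose with it. In the group of genes for entry into mitosis, 7 of 9 were called higher at 6 ppm after 5 d and 9 of 9 at 10 and 15 ppm, with a median of 1.51 at 15 ppm. Cks2, a small subunit that binds the kinase, had signals of 8.82, 9.02, 9.20 and 9.38 at 0 ppm and of 10.91, 11.15, 11.23 and 11.29 at 15 ppm. These groups stood 2.04 ± 0.16 apart without overlap (adjusted p = 1.81e-15). Ccna2, which encodes cyclin A2, had signals of 7.16, 7.50, 7.69 and 8.01 at 0 ppm and of 9.34, 9.45, 10.10 and 10.17 at 15 ppm, a difference of 2.17 ± 0.23 (adjusted p = 4.02e-11). The B-type cyclin genes Ccnb1 and Ccnb2 differed by 1.17 ± 0.13 and 1.71 ± 0.16. Pbk, a mitotic kinase, and Melk, a kinase of dividing progenitors, differed by 1.67 ± 0.14 and 1.45 ± 0.14. Cdca3, which helps to destroy the Cdk1 inhibitor WEE1, differed by 1.51 ± 0.14. Foxm1, a transcription factor of G2 and M genes, changed least in the group, by 0.50 ± 0.11 (adjusted p = 0.000161). Its signals in 4 animals a group ran from 6.99 to 7.15 at 0 ppm and from 7.41 to 7.61 at 15 ppm.

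Among the genes of condensation and chromatin, 4 of 7 were called higher at 6 ppm and 6 of 7 at 15 ppm after 5 d, with a median of 0.85 at 15 ppm. Mki67, the Ki-67 protein that coats mitotic chromosomes and marks cycling cells, had signals of 7.98, 8.00, 8.23 and 8.30 at 0 ppm and of 9.44, 9.68, 9.92 and 9.96 at 15 ppm. It was higher by 1.62 ± 0.23 (adjusted p = 9.42e-08), and no 15 ppm animal reached down to the 0 ppm range. Top2a had signals of 7.78, 7.80, 7.81 and 8.04 at 0 ppm and of 8.54, 8.97, 9.12 and 9.21 at 15 ppm, higher by 1.10 ± 0.15 (adjusted p = 2.99e-08). Its difference at 10 ppm was also 1.10. Of the condensin subunits, Ncaph differed by 0.85 ± 0.10, Smc2 by 0.97 ± 0.15 and Ncapd2 by 0.72 ± 0.14. Smc4, the partner of Smc2, was called at 15 ppm after 5 d (0.73 ± 0.27, adjusted p = 0.0261), with 4 animals from 7.13 to 7.97 and from 7.98 to 8.81. Its differences were 0.74 at 6 ppm and 0.16 at 10 ppm, neither called. Cdca2, which guides a phosphatase to chromosomes, was not called at any dose (0.29 ± 0.23 at 15 ppm, adjusted p = 0.348).

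In the spindle checkpoint, which holds anaphase until all chromosomes are attached, 3 of 5 genes were called higher at 6 ppm and 5 of 5 at 10 and 15 ppm after 5 d. Bub1, a checkpoint kinase, had signals of 6.48, 6.77, 6.83 and 6.88 at 0 ppm and of 8.01, 8.34, 8.46 and 8.69 at 15 ppm, higher by 1.63 ± 0.16 (adjusted p = 4.3e-12). Mad2l1, which blocks Cdc20, had signals of 7.50, 7.60, 7.63 and 7.95 at 0 ppm and of 9.03, 9.24, 9.36 and 9.52 at 15 ppm. It was higher by 1.61 ± 0.16 (adjusted p = 1.5e-12). Ttk, the MPS1 kinase, differed by 1.60 ± 0.17 and Bub1b, the BubR1 kinase, by 0.97 ± 0.16. Bub3, the adaptor that brings Bub1 to kinetochores, had signals of 11.03, 11.16, 11.16 and 11.17 at 0 ppm and of 11.24, 11.28, 11.39 and 11.45 at 15 ppm. These did not overlap, but the difference was 0.21 ± 0.05, a 1.16-fold higher signal (adjusted p = 0.000713). A second Bub3 probe set differed by 0.01 ± 0.10 (adjusted p = 0.972), so its small rise was seen in 1 of its probe sets.

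All 5 genes of anaphase and ubiquitin transfer were called higher at 10 and 15 ppm after 5 d, and 3 at 6 ppm. Ube2c, the ubiquitin-conjugating enzyme of the anaphase-promoting complex, had signals of 8.42, 8.65, 8.69 and 8.90 at 0 ppm. They were 9.54, 9.85, 9.97 and 10.30 at 10 ppm and 10.24, 10.66, 10.69 and 10.74 at 15 ppm. The 15 ppm group lay wholly above 0 ppm and overlapped 10 ppm in 1 animal, and the difference from 0 ppm was 1.91 ± 0.14, a 3.77-fold higher signal (adjusted p = 3.99e-16). Cdc20 differed by 1.50 ± 0.15 and Espl1, the separase that cuts cohesin, by 1.87 ± 0.19. Pttg1, the securin that restrains separase, differed by 0.89 ± 0.10. Ube2t, a ubiquitin-conjugating enzyme known for the Fanconi anemia pathway, differed by 1.34 ± 0.10.

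In the group of spindle assembly 1 of 5, Plk1, was called at 6 ppm after 5 d and 5 of 5 at 10 and 15 ppm. Aurka, the Aurora kinase of spindle poles, had signals of 6.55, 6.74, 6.83 and 7.05 at 0 ppm and of 8.03, 8.05, 8.14 and 8.33 at 15 ppm, higher by 1.35 ± 0.12 (adjusted p = 2.59e-13). Plk1, the polo-like kinase, differed by 1.05 ± 0.10, Hmmr, a spindle and hyaluronan-binding protein, by 1.07 ± 0.14, and Nusap1 and Dlgap5, which bind spindle microtubules, by 0.99 ± 0.14 and 0.70 ± 0.09. Of the 7 mitotic kinesins, the motors of the spindle, 6 were called at 6 ppm and 7 at 10 and 15 ppm. Kif20a, a motor of the spindle midzone, had signals of 7.15, 7.21, 7.50 and 7.63 at 0 ppm and of 8.79, 8.97, 9.03 and 9.19 at 15 ppm. It was higher by 1.62 ± 0.17 (adjusted p = 1.45e-11). Kif15, which helps keep the spindle poles apart, had signals of 7.0, 7.04, 7.08 and 7.09 at 0 ppm and of 7.71, 7.89, 7.99 and 8.05 at 15 ppm, higher by 0.85 ± 0.09 (adjusted p = 1.66e-11). Kif11, the main pole-separating motor, differed by 1.29 ± 0.20, and Kif2c, which takes microtubules apart at centromeres, by 0.91 ± 0.16. Kif20b, Kif22 and Kif23 differed by 1.55 ± 0.21, 1.29 ± 0.14 and 1.23 ± 0.18. A second Kif23 probe set differed by 0.26 ± 0.16 and was not called (adjusted p = 0.234).

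At the centromere and kinetochore, where spindle fibres attach, 3 of 7 genes were called at 6 ppm and 6 of 7 at 10 and 15 ppm after 5 d. Cenpk had signals of 7.64, 7.78, 8.08 and 8.14 at 0 ppm and of 9.02, 9.33, 9.41 and 9.48 at 15 ppm, higher by 1.40 ± 0.13 (adjusted p = 4.95e-13). Spc25, a subunit of the NDC80 complex that grips microtubules, had signals of 7.65, 7.98, 8.16 and 8.31 at 0 ppm and of 9.13, 9.34, 9.62 and 9.62 at 15 ppm. It was higher by 1.40 ± 0.14 (adjusted p = 4.23e-12), and its complex partners Nuf2 and Spc24 by 1.29 ± 0.13 and 1.28 ± 0.14. Cenpe, a kinetochore motor, and Cenpf differed by 0.67 ± 0.14 and 0.62 ± 0.14. Cenpa, the histone H3 variant of centromeres, was not called (0.19 ± 0.11, adjusted p = 0.19), with mean signals of 5.37 at 0 ppm and 5.56 at 15 ppm.

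The 3 cytokinesis genes were called higher at 10 and 15 ppm after 5 d, and Prc1 and Ect2 already at 6 ppm. Prc1, which bundles the central spindle, had signals of 8.60, 8.63, 8.76 and 8.79 at 0 ppm and of 9.69, 9.96, 9.99 and 10.16 at 15 ppm, higher by 1.26 ± 0.11 (adjusted p = 1.26e-13). Ect2, the exchange factor that activates RhoA for the contractile ring, differed by 1.17 ± 0.13, and Racgap1, its partner at the midzone, by 0.40 ± 0.12. In the chromosomal passenger complex, which corrects faulty attachments, 3 of 4 genes rose. Birc5, or survivin, had signals of 6.99, 7.18, 7.18 and 7.33 at 0 ppm and of 8.60, 8.64, 9.07 and 9.09 at 15 ppm, higher by 1.68 ± 0.14 (adjusted p = 2.31e-14). Cdca8, the borealin subunit, and Incenp differed by 1.48 ± 0.14 and 0.80 ± 0.15.

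Aurkb, the kinase of the same complex, went the other way. Its signals at 5 d were 11.35, 11.50, 11.63 and 12.03 at 0 ppm, 10.64, 11.20, 11.24 and 11.58 at 10 ppm, and 10.50, 11.07, 11.13 and 11.33 at 15 ppm. The 15 ppm animals lay wholly below those of 0 ppm, and those of 10 ppm overlapped them. It fell by 0.46 at 10 ppm and by 0.62 ± 0.16 at 15 ppm (adjusted p = 0.0018). After 4 w it fell by 0.63 ± 0.16 against 0.7 ppm (adjusted p = 0.00155), and after 13 w by 0.89 ± 0.16 (adjusted p = 9.33e-06). The 13 w signals were 11.26, 11.43, 11.48 and 11.60 at 0 ppm and 10.51, 10.53, 10.54 and 10.65 at 15 ppm, without overlap. Aurkb has 1 probe set, so a second measure of it was not used here. Whether that probe set measures the annotated transcript was not checked, so the fall is that of 1 probe set.

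**Figure D3:**
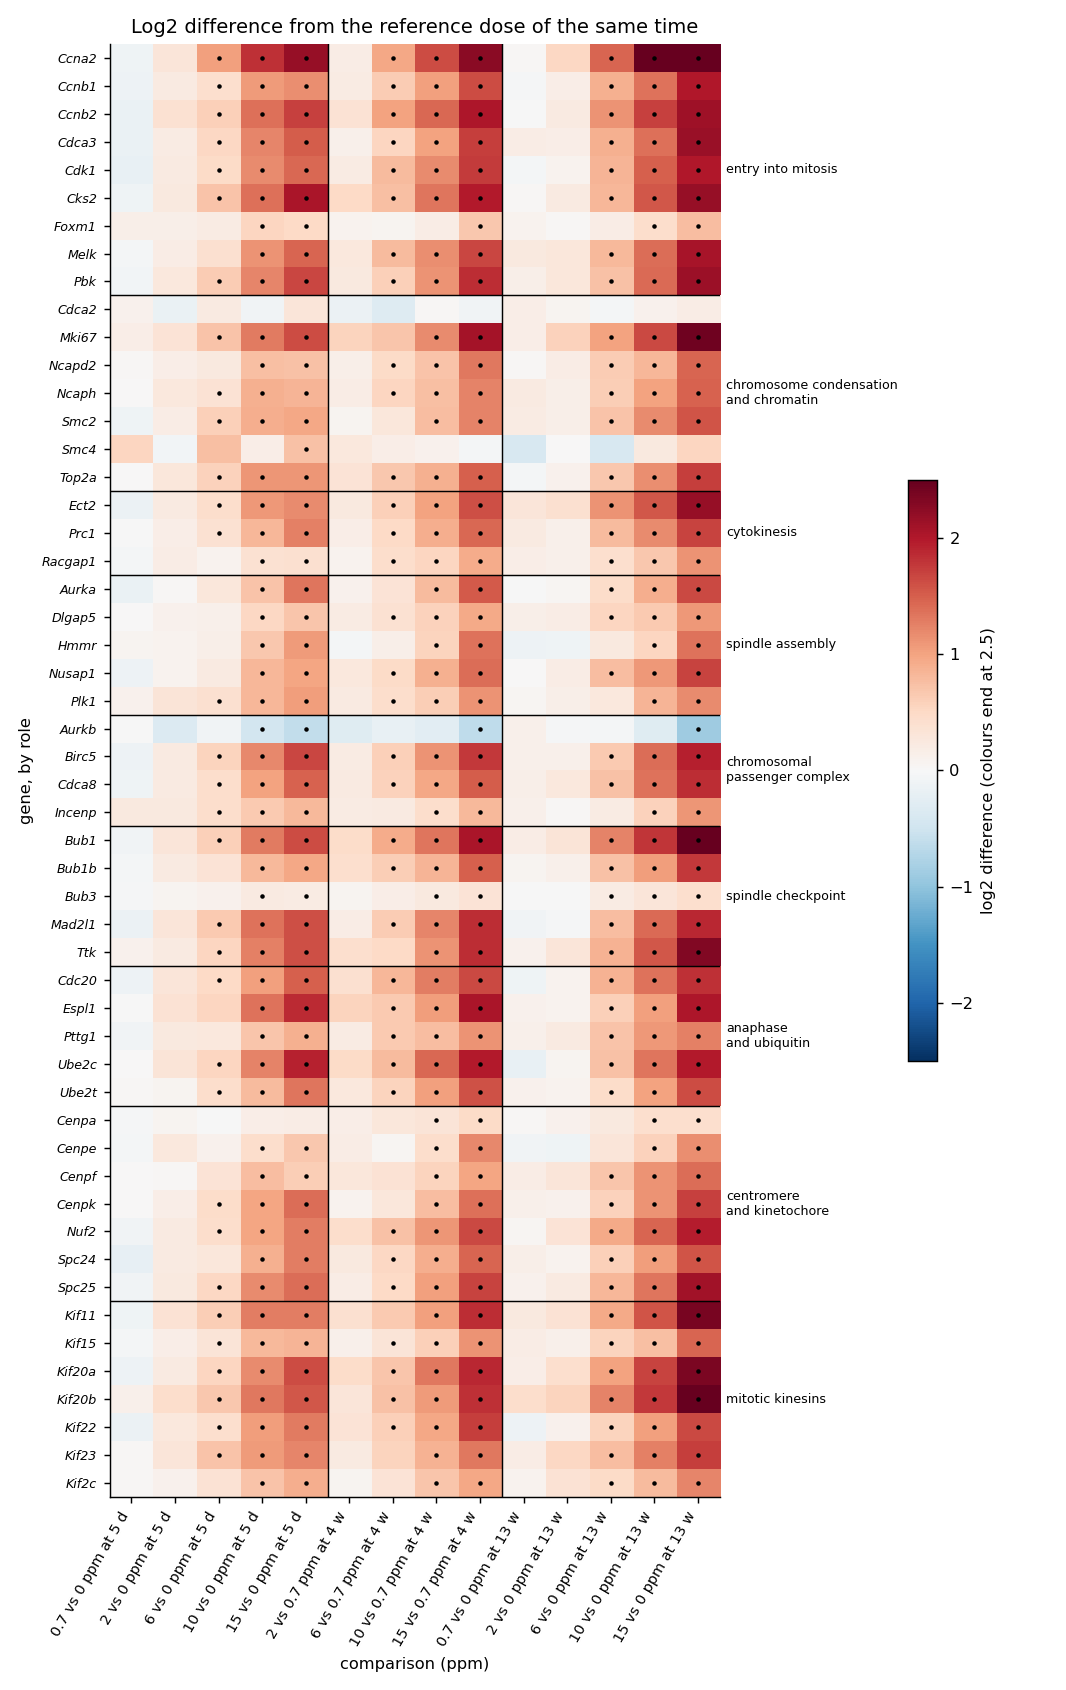
Log2 difference of each of the 52 mitosis genes (rows, by role) from the reference dose of the same time (columns: 0 ppm at 5 d and 13 w, 0.7 ppm at 4 w). Colours run from blue (lower) to red (higher) and end at 2.5, and dots mark calls at an adjusted p under 0.05. After 13 w, Ccna2 with 3.08 and Kif20b with 2.56 pass that end at 15 ppm. At 10 ppm after 13 w a gene of entry into mitosis passes it with 2.53. Aurkb is the gene called lower, and Cdca2 has no dot.

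The higher doses were also compared with each other. From 6 to 10 ppm after 5 d, 28 of 52 genes rose, with a median of 0.54, while 0.914% of all genes were called higher. From 10 to 15 ppm 12 rose, with a median of 0.26, against 7.18% of all genes. The 12 were Ube2t, Aurka, Ube2c, Cks2, Prc1, Cdca8, Birc5, Pbk, Cenpk, Cdc20, Spc24 and Hmmr. After 13 w, 27 rose from 6 to 10 ppm (median 0.48, 2.07% of all genes) and 40 from 10 to 15 ppm (median 0.56, 8.55% of all genes), while Aurkb was the 1 gene lower in the last step, with 4.07% of all genes. After 4 w, Ube2t and Ube2c rose from 6 to 10 ppm (median 0.39, 0.577% of all genes) and 41 genes from 10 to 15 ppm (median 0.56, 5.11% of all genes). Whether a step differed between times was not tested. Mean signals rose at each dose from 2 to 6 to 10 to 15 ppm in 41 of 52 genes after 5 d, 47 after 4 w and 49 after 13 w, against 11%, 17.4% and 19.9% of all genes. Aurkb, Cdca2 and Smc4 did not at any of the times.

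Several of these steps rested on few animals. The 28 genes of the step from 6 to 10 ppm after 5 d became 0 without animal 329 of 10 ppm, 5 without animal 295 and 10 without animal 299 of 6 ppm. The 12 of the next step became 5 without animal 324 of 10 ppm, 5 without animal 356 and 6 without animal 358 of 15 ppm. The 27 after 13 w became 6 without animal 346 and 5 without animal 349 of 10 ppm, and 9 without animal 319 and 8 without animal 320 of 6 ppm. After 4 w the 2 genes of the lower step became 0 without animal 333, 11 without animal 331 and 1 without animal 336 of 10 ppm, and 11 without animal 307 and 1 without animal 303 or animal 310 of 6 ppm. The 41 of the upper step became 19 without animal 331 of 10 ppm and 27 without animal 369 of 15 ppm.

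After 4 w, with 0.7 ppm as the reference, the genes called higher numbered 0 at 2 ppm, 34 at 6 ppm, 48 at 10 ppm and 49 at 15 ppm. Of all genes, 0.0141%, 2.05%, 9.03% and 21.3% were called higher. The median difference was 0.22 at 2 ppm, with 17 genes at an unadjusted p under 0.05, then 0.55, 0.91 and 1.51. At 15 ppm 49 genes lay wholly above 0.7 ppm, against 19.7% of all genes, and Aurkb was the 1 gene called lower, with 16.1% of all genes. The count at 6 ppm was 17 without animal 243 of 0.7 ppm and 22 without animal 307 of 6 ppm. Mki67 had signals of 6.58, 7.97, 8.06 and 8.15 at 0.7 ppm and of 9.65, 9.75, 9.76 and 9.95 at 15 ppm. It was higher by 2.09 ± 0.23 (adjusted p = 1.96e-10), and the lowest of its 0.7 ppm animals, 243, was also the lowest of that group in 39 of the 52 genes. Ube2t was higher by 1.60 ± 0.10 (adjusted p = 5.85e-18) and Cenpa, not called after 5 d, by 0.48 ± 0.11 (adjusted p = 0.000384). Smc4, at -0.04 ± 0.27, and Cdca2, at -0.09 ± 0.23, were not called.

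After 13 w the mitosis genes again rose from 6 ppm on. Against 0 ppm, 0 genes were called at 0.7 and 2 ppm, 43 were called higher at 6 ppm, and 49 at 10 and at 15 ppm. Of all genes 0%, 0.00703%, 7.54%, 13.8% and 23.5% were called higher at the 5 doses. The median differences were 0.12, 0.15, 0.71, 1.14 and 1.72, and 3 genes at 0.7 ppm and 11 at 2 ppm had an unadjusted p under 0.05. At 15 ppm 50 genes lay wholly above 0 ppm, against 22.9% of all genes, and Aurkb was called lower with 20.6% of all genes. The median deviation ran from -0.89 to -0.66 at 0 ppm, from -0.87 to -0.59 at 0.7 ppm, from -0.71 to -0.60 at 2 ppm, from -0.25 to 0.06 at 6 ppm, from 0.19 to 0.51 at 10 ppm and from 0.75 to 1.11 at 15 ppm. The 3 lowest doses overlapped, and the groups of 6, 10 and 15 ppm each lay wholly above the next lower dose.

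The largest difference among the 52 was that of Ccna2. Its 13 w signals were 6.34, 6.67, 7.24 and 7.33 at 0 ppm and 9.69, 9.93, 10.00 and 10.28 at 15 ppm, higher by 3.08 ± 0.23, or 8.45-fold (adjusted p = 2.69e-16). Kif20b, a motor of late mitosis, followed with 2.56 ± 0.21. Bub1 had signals of 5.84, 5.93, 6.15 and 6.36 at 0 ppm and of 8.33, 8.52, 8.54 and 8.84 at 15 ppm, higher by 2.49 ± 0.16 (adjusted p = 1.82e-18). Mki67 had signals of 7.0, 7.19, 7.50 and 7.82 at 0 ppm and of 9.59, 9.80, 9.80 and 10.07 at 15 ppm, higher by 2.44 ± 0.23 (adjusted p = 7.84e-13). Top2a had signals of 7.33, 7.39, 7.45 and 7.66 at 0 ppm and of 9.08, 9.16, 9.19 and 9.31 at 15 ppm, higher by 1.72 ± 0.15 (adjusted p = 4.16e-14). None of these pairs of groups overlapped.

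Ect2 had the smallest p after 13 w. Its signals were 7.01, 7.07, 7.17 and 7.44 at 0 ppm, 7.09, 7.49, 7.63 and 7.66 at 0.7 ppm, and 7.44, 7.56, 7.58 and 7.70 at 2 ppm. They were 8.17, 8.25, 8.36 and 8.37 at 6 ppm, 8.52, 8.64, 8.83 and 8.92 at 10 ppm, and 9.15, 9.26, 9.36 and 9.61 at 15 ppm. The 0.7 ppm animals overlapped those of 0 and 2 ppm and the 3 highest doses were each apart, and the 15 ppm group was 2.17 ± 0.13 above 0 ppm (adjusted p = 4.41e-20). Cdk1 had 13 w signals of 8.55, 8.62, 8.63 and 8.82 at 0 ppm, 8.67, 8.71, 8.76 and 8.83 at 2 ppm, 9.29, 9.35, 9.57 and 9.78 at 6 ppm, 9.96, 10.15, 10.20 and 10.27 at 10 ppm and 10.44, 10.67, 10.70 and 10.79 at 15 ppm. It was 2.00 ± 0.13 above 0 ppm at 15 ppm (adjusted p = 9.58e-19), and 0 and 2 ppm overlapped.

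In every role group the 13 w response to 15 ppm covered most members. The genes called higher were 9 of 9 for entry into mitosis (median 2.12), 5 of 7 for condensation and chromatin (1.47), 5 of 5 for the checkpoint (1.88), 5 of 5 for anaphase and ubiquitin (1.82), 5 of 5 for spindle assembly (1.36), 3 of 4 for the passenger complex (1.47), 7 of 7 for centromere and kinetochore (1.57), 7 of 7 for kinesins (1.74) and 3 of 3 for cytokinesis (1.69). Ccnb1 had signals of 7.27, 7.47, 7.47 and 7.59 at 0 ppm and of 9.20, 9.46, 9.56 and 9.61 at 15 ppm, higher by 2.01 ± 0.13. Ube2t had signals of 6.23, 6.28, 6.35 and 6.41 at 0 ppm and of 7.77, 7.81, 8.06 and 8.14 at 15 ppm, higher by 1.63 ± 0.10. Spc25 had signals of 7.16, 7.35, 7.43 and 7.47 at 0 ppm and of 9.20, 9.43, 9.53 and 9.66 at 15 ppm, higher by 2.10 ± 0.14. Ncaph had signals of 7.86, 7.86, 7.94 and 8.13 at 0 ppm and of 9.18, 9.38, 9.50 and 9.61 at 15 ppm, higher by 1.47 ± 0.10. All of these groups were apart.

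A few genes had small differences or none called after 13 w. Bub3 was higher by 0.42 ± 0.05 (adjusted p = 8.67e-10), with signals of 10.95, 10.97, 11.00 and 11.00 at 0 ppm and of 11.31, 11.38, 11.42 and 11.50 at 15 ppm, and its second probe set by -0.05 ± 0.10 (adjusted p = 0.747). Cenpa was higher by 0.42 ± 0.11 and Foxm1 by 0.76 ± 0.11. Smc4 and Cdca2 were not called at 0.54 ± 0.27 (adjusted p = 0.0994) and 0.19 ± 0.23 (adjusted p = 0.534). Their second probe sets, of lower mean signal, were called higher, at 0.79 ± 0.12 (adjusted p = 1.56e-07) for Smc4 and 0.35 ± 0.11 (adjusted p = 0.0106) for Cdca2.

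**Figure D4:**
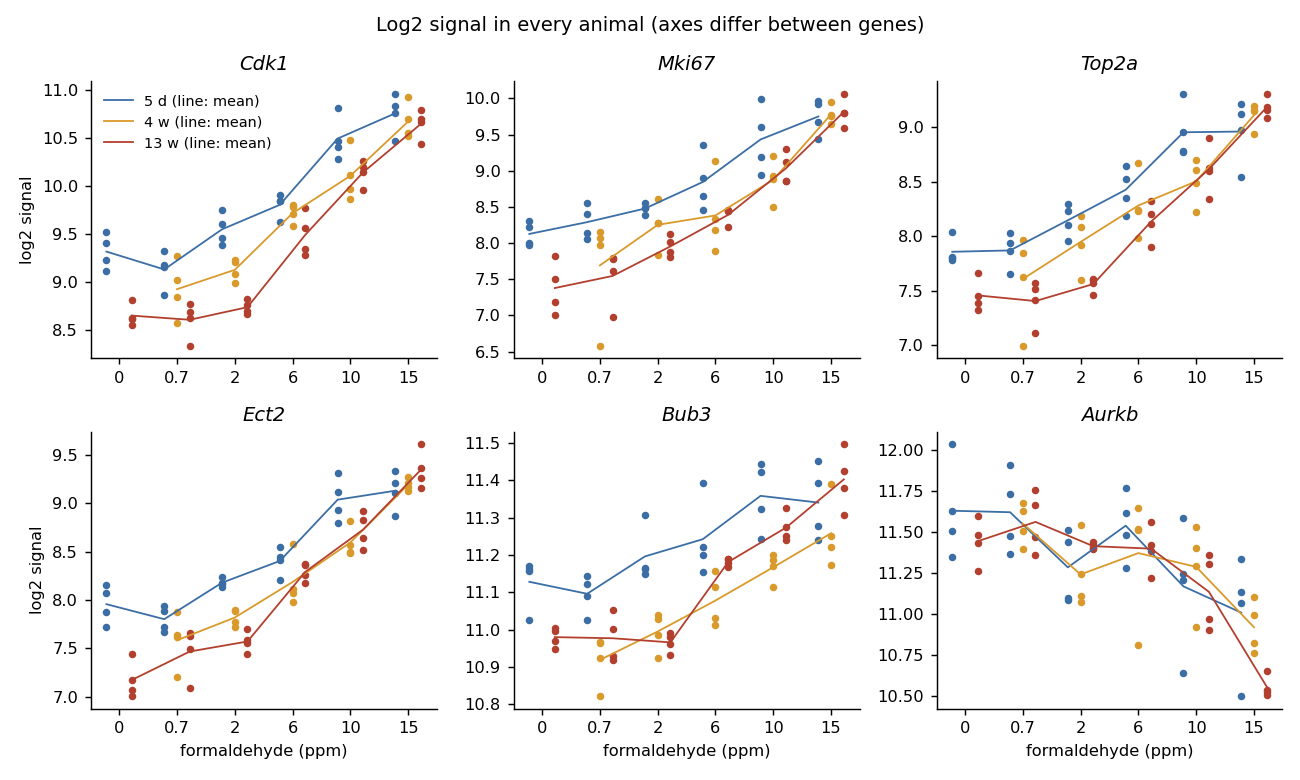
Log2 signal of Cdk1, Mki67, Top2a, Ect2, Bub3 and Aurkb in every animal against the formaldehyde dose, after 5 d, 4 w and 13 w, with lines through the means of 4 animals. The y axes differ between genes. For Cdk1 the 0 ppm animals run from 9.12 to 9.52 after 5 d and from 8.55 to 8.82 after 13 w, while the 15 ppm animals of the times overlap, and Aurkb falls at 15 ppm.

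At 0 ppm the mitosis genes were lower after 13 w than after 5 d. Of the 52, 25 fell and 0 rose, with a median difference of -0.49, against -0.02 over all genes, and 1.62% of all genes were called lower. In 32 of the 52 all 4 animals of 13 w lay below all 4 of 5 d, against 7.46% of all genes, and 40 had an unadjusted p under 0.05. The median deviation ran from -0.49 to -0.12 after 5 d and from -0.89 to -0.66 after 13 w, without overlap. The count of 25 was 15 without animal 230 of 13 w, 12 without animal 207 and 16 without animal 208 of 5 d. It was 0 when the spread was estimated from the 0 ppm arrays alone, and 38 with arrays weighted by their quality.

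The fall at 0 ppm was led by Ect2. At 5 d it had signals of 7.72, 7.87, 8.07 and 8.16, and at 13 w of 7.01, 7.07, 7.17 and 7.44, lower by 0.78 on the log2 scale (-0.78 ± 0.13, adjusted p = 0.000366). Securin, Pttg1, had signals of 8.79, 8.91, 9.24 and 9.24 after 5 d and of 8.36, 8.40, 8.41 and 8.44 after 13 w (-0.64 ± 0.10, adjusted p = 0.000366). Nusap1 had signals of 7.91, 8.04, 8.27 and 8.39 after 5 d and of 7.22, 7.38, 7.50 and 7.54 after 13 w (-0.74 ± 0.14, adjusted p = 0.0021). Cdk1 changed by -0.67 ± 0.13 (adjusted p = 0.00222) and Melk by -0.74 ± 0.14 (adjusted p = 0.00266). None of these 5 pairs of groups overlapped.

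Members of all 9 role groups were among the 25 that fell at 0 ppm. They were 5 of 9 for entry into mitosis, 2 of 7 for condensation and chromatin, 1 of 5 for the checkpoint, 4 of 5 for anaphase and ubiquitin, 3 of 5 for spindle assembly, 1 of 4 for the passenger complex, 4 of 7 for centromere and kinetochore, 2 of 7 for kinesins and 3 of 3 for cytokinesis. Smc4 was the gene of the set whose 13 w animals lay wholly above those of 5 d, at 8.08 to 8.35 against 7.13 to 7.97, and it was not called. Beside this fall, 1 of 3 B and plasma cell markers was called higher, and 0 markers of the other cell lists were called (basal, ciliated, secretory, T and NK, macrophage, neutrophil, general leukocyte, fibroblast, endothelial and olfactory). Of all 14217 genes, 89 were called higher there. The summed linear signal of the basal markers was 37481 to 41659 after 5 d and 35652 to 39697 after 13 w. Such a sum weighs the markers of highest signal most, here Krt15 and Krt14. The olfactory neuron markers had a median difference of -1.09 with 0 of 5 called, and their part in the fall was not tested.

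Mitosis genes also fell with time at 0.7 and 2 ppm. From 5 d to 13 w, 7 of 52 genes fell at 0.7 ppm (median -0.32, 1.05% of all genes called lower) and 36 at 2 ppm (median -0.53, 6.37% of all genes). In 24 and 42 genes the 13 w animals lay wholly below those of 5 d, against 4.23% and 13.3% of all genes. Between the same times at 15 ppm 3 genes fell and 0 rose, with a median of 0.02, while 14.4% of all genes were called higher and 13.1% lower. The 3 were Ube2c (-0.43), Pttg1 (-0.27) and Aurkb (-0.45). At 15 ppm 0 genes were called between 4 w and 5 d (median -0.05, 4 with an unadjusted p under 0.05) or between 13 w and 4 w (median 0.07, 3 with an unadjusted p under 0.05), while 4.56% and 0.605% of all genes were called higher. The mean median deviation at 6 ppm was 0.10 after 5 d, -0.07 after 4 w and -0.10 after 13 w, and at 10 ppm it was 0.66, 0.31 and 0.35. The 7 at 0.7 ppm became 1 without animal 258 of 13 w, 1 without animal 237 and 4 without animal 235 of 5 d, and 21 with array weights. The 36 at 2 ppm became 22 without animal 268 of 5 d. Beside the fall at 2 ppm, 4 of 6 macrophage markers (median -0.77), 3 of 6 fibroblast markers (median -1.36), 1 of 4 endothelial, 1 of 4 neutrophil and 1 of 8 basal cell markers were lower, and 1 of 6 secretory and 1 of 3 B and plasma cell markers were higher. At 0.7 ppm 0 markers of the 11 cell lists were lower and 1 of 6 secretory cell markers was higher. Of all 14217 genes, 306 were called higher at 2 ppm and 120 at 0.7 ppm. At 15 ppm between the same times all 7 T and NK cell, 6 macrophage, 4 neutrophil, 4 endothelial and 3 general leukocyte markers, 4 of 6 fibroblast, 2 of 4 ciliated and 2 of 6 secretory cell markers were lower, and 6 of 8 basal cell markers were higher. The part of these cells in the changes with time was not tested. At 15 ppm the 3 became 1 without animal 378 or 379 of 13 w or animal 354 or 358 of 5 d, and 2 without animal 375 of 13 w, and the direction of most calls turned without 354, 358 or 375.

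**Figure D5:**
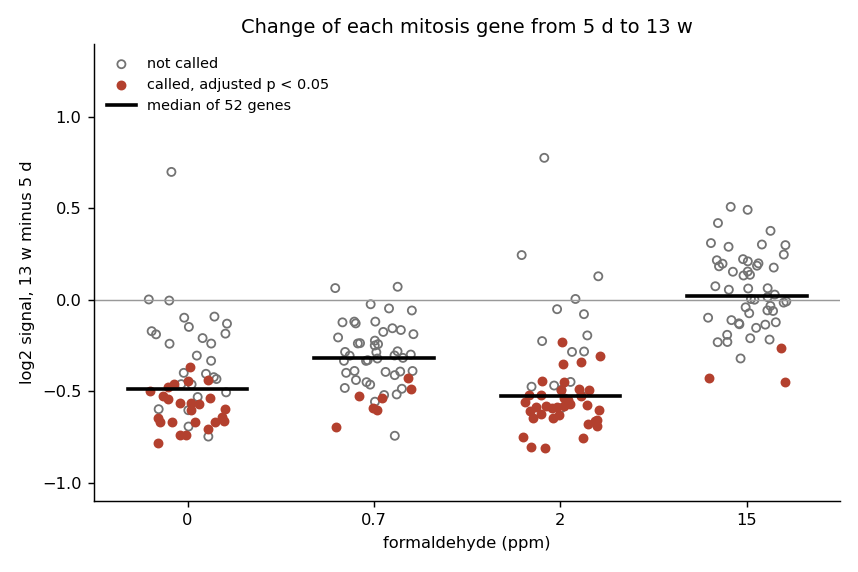
Difference in log2 signal between 13 w and 5 d for each of the 52 mitosis genes at 0, 0.7, 2 and 15 ppm, each point 1 gene, with filled points called at an adjusted p under 0.05 and bars at the median over the genes. The medians are -0.49, -0.32, -0.53 and 0.02, and sideways scatter within a dose has no meaning.

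The response to 15 ppm over 0 ppm was larger after 13 w than after 5 d in 23 of the 52 genes and smaller in 0, by the test of the difference between both responses. The median of this difference was 0.45, against 0.01 over all genes, and 9.21% of all genes were called higher. Ect2 led with 1.00 ± 0.18 (adjusted p = 3.6e-05). Its response was 1.17 after 5 d and 2.17 after 13 w, its mean signals at 15 ppm were 9.13 and 9.34, and those at 0 ppm were 7.96 and 7.17. Kif15 followed with 0.60 ± 0.13 (adjusted p = 0.000418) and Ccnb1 with 0.84 ± 0.18 (adjusted p = 0.000497). Kif15 had mean signals of 7.91 and 8.06 at 15 ppm and of 7.06 and 6.61 at 0 ppm. Kif11, the motor with the largest value, differed by 1.10, and it was named after its value was seen. The lowest values, Aurkb at -0.27 ± 0.23 and Smc4 at -0.19 ± 0.38, were not called. The count of 23 was 15 without animal 378 of 15 ppm 13 w and 14 without animal 359 of 15 ppm 5 d. Both responses share no array, but each holds its own 0 ppm group, so a lower 0 ppm signal after 13 w enters the larger response.

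No other difference in response between times passed the threshold for these genes. At 6 ppm 0 of 52 were called and 11 had an unadjusted p under 0.05, led by Ect2 (0.67 ± 0.18, adjusted p = 0.137), with 0% of all genes called higher. At 10 ppm 0 were called and 7 had an unadjusted p under 0.05, with 0.00703% of all genes. With 0.7 ppm as reference, the response to 15 ppm was called different in 0 genes between 4 w and 5 d (7 with an unadjusted p under 0.05, 1.58% of all genes higher) and in 0 between 13 w and 4 w (3 with an unadjusted p under 0.05, 0.0141% of all genes). Ncapd2 was nearest between 4 w and 5 d, at 0.62 ± 0.20 (adjusted p = 0.0659).

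Markers of other cells also changed at the upper doses. Of all genes, 18.3% were called higher and 19.5% lower at 15 ppm after 5 d. These shares were 21.3% and 16.1% after 4 w, and 23.5% and 20.6% after 13 w. At 10 ppm 9.75%, 9.03% and 13.8% were called higher at the 3 times. At 10 ppm after 13 w 1784 of 14217 genes were called lower. A count near such a share is not read as a change of those cells. At 15 ppm after 5 d, 4 of 4 neutrophil markers, 6 of 7 T and NK cell markers, 3 of 6 macrophage markers and 3 of 3 general leukocyte markers were higher. The summed signal of the general leukocyte markers Ptprc, Laptm5 and Coro1a was 1322 to 1569 at 0 ppm and 3454 to 5543 at 15 ppm. At 10 ppm after 5 d it was 1241 to 2009 and 0 of the 3 were called, with 1 of 7 T and NK cell markers higher. At 10 ppm after 4 w 3 of 4 neutrophil and 2 of 6 macrophage markers were higher. At 15 ppm after 4 w 4 of 4 neutrophil, 3 of 7 T and NK cell, 2 of 6 macrophage and 3 of 3 general leukocyte markers were higher, and 1 of 6 fibroblast markers was lower. The summed general leukocyte signal was 1601 to 2356 there and 1164 to 1414 at 0.7 ppm. At 15 ppm after 13 w it was 1092 to 1389 against 1200 to 2350 at 0 ppm, with 0 of 3 called. In that comparison 3 of 3 B and plasma cell markers (median -1.23), 3 of 6 fibroblast markers (median -1.21), 2 of 7 T and NK cell, 2 of 6 macrophage and 2 of 6 secretory cell markers were lower, and 1 of 4 neutrophil markers was higher. At 10 ppm after 13 w 3 of 6 fibroblast markers and 1 of 6 macrophage markers were lower. The summed fibroblast signal after 13 w was 29313 to 36949 at 0 ppm, 10430 to 25146 at 10 ppm and 8319 to 17077 at 15 ppm. The basal cell markers gave 4 of 8 higher and 2 lower at 15 ppm after 5 d, 6 of 8 higher after 4 w and 8 of 8 after 13 w. At 10 ppm 4, 1 and 4 of 8 were higher at the 3 times, and at 6 ppm 2, 1 and 2. Of all genes, 3.54%, 2.05% and 7.54% were called higher at 6 ppm. The summed signal of the basal markers after 13 w was 58090 to 65431 at 15 ppm and 35652 to 39697 at 0 ppm. Krt15 and Krt14 weigh most in this sum. Their mean log2 signals after 13 w were 14.37 and 12.92 at 0 ppm and 14.57 and 14.29 at 15 ppm. Ciliated cell markers were lower at 15 ppm in 3, 2 and 4 of 4 at the 3 times. The part of any of these cells in the rise of the mitosis genes was not tested. With RIN in the model and the 5 arrays without it left out, 24, 49 and 49 genes were called at 6, 10 and 15 ppm after 5 d, 43, 48 and 49 after 13 w, and 21 fell at 0 ppm.

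Other genes of division, which are no members, were read from lists of related genes. The shares of all genes called at 15 ppm were 18.3% higher and 19.5% lower after 5 d, and 23.5% higher and 20.6% lower after 13 w. Of 51 further mitotic genes, 10, 34 and 39 were higher at 6, 10 and 15 ppm after 5 d and 45 at 15 ppm after 13 w, with a median of 1.00 in the last, beside 3.54% and 9.75% of all genes at 6 and 10 ppm after 5 d. At 15 ppm 1 of the 51 was lower after 5 d and 1 after 13 w. Cenpn, a centromere protein, rose by 1.29 ± 0.09 after 5 d and 1.66 ± 0.09 after 13 w, and Trip13, which resets the checkpoint, by 1.78 ± 0.14 and 2.15 ± 0.14. At 0 ppm 10 of the 51 fell from 5 d to 13 w and 0 rose, beside 1.62% of all genes called lower. Of 23 core subunits of the anaphase-promoting complex and cohesin, which are needed outside mitosis too, 2 were higher and 7 lower at 15 ppm after 5 d, and 5 higher and 7 lower after 13 w, and nothing particular to this list is read from these counts. Cdc27, a subunit of that complex, rose by 0.87 ± 0.13 after 13 w, and Stag2, a cohesin subunit, fell by 0.43 after 5 d and by 0.58 after 13 w. Of 20 genes of E2F, MuvB and NF-Y control, 10 were higher and 4 lower at 15 ppm after 5 d, and 13 higher and 3 lower after 13 w. Mybl2, the B-MYB factor, rose by 0.76 ± 0.12 and 1.34 ± 0.12, and Rbl2, the p130 protein that holds these genes silent in resting cells, fell by 0.48 and 0.94. Of 10 G1 cyclin and kinase genes, 5 and 8 were higher at 15 ppm after 5 d and 13 w, led by Ccne1, which encodes cyclin E1 (1.25 ± 0.14 and 1.71 ± 0.14). Of these 10, 0 were lower at 15 ppm after 5 d and 1 after 13 w.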

How the data were processed

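RNA of 68 rats was hybridised to Rat230_2 arrays. Per the submitters' processing notes, the authors used GCOS 1.0 and RMA, and the table they deposited holds log2 signals. No further scaling was applied. Of 31099 probe sets, 20832 named 1 gene, of which 6 were control probe sets and left out, 436 named several and 9831 none. A mean per group was fitted with limma 3.58.1 (R 4.3.3; lmFit, eBayes, 51 residual and 2.85 prior degrees of freedom), with Benjamini-Hochberg adjustment over 14217 genes within each contrast. Animals counted as independent samples, and 4 per group limit the precision.

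The members and all lists were chosen with earlier results of these data known. Per-animal values are given for the member of each role with the smallest adjusted p at 15 ppm after 5 d and after 13 w, for Mki67, Top2a and Cdk1, and for members called against the majority. The 5 smallest adjusted p at 0 ppm and the 3 of each sign in each interaction could be named. Ccna2, Bub3, Foxm1, Smc4 and members given by their difference alone were added after their values were seen.

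The fit was tested on simulated data over 14217 genes. In the simulated comparison of 15 ppm with 0 ppm after 5 d, the calls covered 38 of 50 genes changed by 0.5, 48 by 1, 50 by 2 and 45 by -1, with 8 unchanged genes among 189 calls. For the fall at 0 ppm it called 59 of 100 genes changed by -0.5. The simulated noise was drawn independently for each gene, and fewer genes were changed than were called in the measured data at 15 ppm. The measured mitosis genes often moved together within a group, so these rates may not hold for them.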

Additional observations from a re-analysis of the deposited data

Results flagged for a closer look

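The signals of 19 genes and the median deviation were checked in each of the 17 groups, which gave 340 sets of 4 animals. In 15 of these (4.41%), all of them signals of genes, the highest or lowest animal stood apart from the rest. Its gap, as a share of the group's range, was above Dixon's critical value for 4 samples. Chance alone gives about 1 in 20. The log2 signals that stood apart upward were Ccnb1 at 7.95 in 0.7 ppm 5 d and 8.19 in 2 ppm 4 w, Top2a at 8.04 in 0 ppm 5 d, Aurka at 6.88 in 6 ppm 13 w, Kif15 at 7.58 in 10 ppm 13 w and Prc1 at 8.73 in 0.7 ppm 4 w. Those that stood apart downward were Mki67 at 6.58 in 0.7 ppm 4 w and 8.22 in 6 ppm 13 w, Aurkb at 10.81 in 6 ppm 4 w, Cenpk at 7.87 in 2 ppm 5 d, Prc1 at 8.30 in 2 ppm 4 w and Ube2c at 10.24 in 15 ppm 5 d. In 15 ppm 13 w, animal 375 was low for Birc5 at 8.21, Prc1 at 9.61 and Ube2c at 9.86, and it was the lowest of its group in 41 of the 52 mitosis genes.

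By the test of the difference between responses, 23 of the 52 genes had a larger response to 15 ppm after 13 w than after 5 d. The differences of the responses were 1.00 for Ect2, 0.60 for Kif15 and 0.84 for Ccnb1.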

How the results depend on the processing

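No paired analysis was possible because each animal number occurs once and the labels pair no animals. The settings tried were centring, cyclic loess, a signal floor of 6, the mean of all probe sets, array weights, RIN as a covariate, leaving out the arrays without RIN, a trended and robust prior, and the arrays of the compared groups alone. Counts of called mitosis genes not named below stayed within 1.5 times. With the compared groups alone the count was 0 for 6 against 0.7 ppm at 4 w, for 10 against 6 ppm at all 3 times, for 15 against 10 ppm at 4 w and between 5 d and 13 w at 0, 0.7 and 15 ppm, and 2 for 15 against 10 ppm at 5 d. With RIN, and likewise without the arrays lacking it, 12 rose from 6 to 10 ppm and 4 from 10 to 15 ppm at 5 d, and with RIN 4 rose from 6 to 10 ppm at 4 w. With array weights it was 12 from 6 to 10 ppm at 4 w, 38 and 21 for the fall at 0 and 0.7 ppm, 2 for the 6 ppm response, and 1 between 4 w and 5 d and between 13 w and 4 w at 15 ppm. For 13 w against 5 d at 15 ppm most calls turned to higher, with 7 calls after centring, 7 with mean probe sets and 5 with weights. Loess gave 1 for 4 w against 5 d at 15 ppm, and centring 1 for the 15 ppm response of 4 w against 5 d. Centring moved the median of all genes by at most 0.099.

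Leaving out 1 animal at a time gave 9 to 31 genes for 6 ppm at 5 d, 17 to 36 at 4 w, 0 to 38 from 6 to 10 ppm and 5 to 18 from 10 to 15 ppm at 5 d, 5 to 28 from 6 to 10 ppm at 13 w, 0 to 11 and 19 to 42 for these steps at 4 w. Between 5 d and 13 w it gave 12 to 26 at 0 ppm, 1 to 8 at 0.7 ppm, 22 to 34 at 2 ppm and 1 to 4 at 15 ppm. It gave 0 to 1 for 4 w against 5 d at 15 ppm, and 14 to 25 for the larger 15 ppm response at 13 w. For the 15 ppm response of 4 w against 5 d it gave 0 to 1. Each member called in a comparison was also followed singly, counted once per comparison and refit. The call was kept in 4743 and lost in 641 such cases with 1 animal left out. Under the other settings it was kept in 5442 and lost in 404 cases, and none turned direction.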
